A study of Rattus norvegicus with 12 samples.

Results

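The red blood cell genes described here are 6 genes, Hbb, Ahsp, Alas2, Slc25a37, Slc4a1 and Rhag, chosen by symbol and measured by RNA sequencing in rat pancreatic islets. All 6 symbols were found among the 25888 symbols (30309 Ensembl transcripts) of the deposited count table, each with 1 transcript. All 6 were among the 20733 transcripts that passed the filter on low counts, although several had only a handful of counts in the 10-week libraries.

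The study has 4 groups of 3 libraries, with IUGR standing for intrauterine growth restriction. These are IUGR islets at 10 weeks of age, control islets at 10 weeks, IUGR islets at 2 weeks and control islets at 2 weeks, all from Sprague Dawley rats. Growth was restricted by tying off the uterine arteries on both sides on embryonic day 18, and litters of controls were reduced to 8 pups. The labels do not say whether control dams had sham surgery, whether islets of several animals were pooled or what the sex of the animals was. The islets were released by collagenase passed through the duct and collected on a Histopaque density gradient, and the labels do not say whether blood was flushed from the pancreas. The series' design text calls the libraries of a group biological replicates.

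Haemoglobin, the oxygen carrier of red blood cells, is a tetramer of alpha and beta globin chains that each hold a haem. Mammalian red cells lose their nucleus as they mature, and young red cells, called reticulocytes, still carry RNA, most of it globin RNA. The genes described here are known mainly from the red cell lineage, with the exception of Slc25a37, which many cells use at a low level. In whole-islet RNA, fewer cells of a type and less RNA per cell cannot be told apart.

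In the libraries as a whole, the deposited counts summed to between 30.4 and 64.2 M (M, mega) per library. The share of counts in a list of acinar (exocrine) genes was 0.635 to 2.33% in IUGR islets at 10 weeks and 13.9 to 46.9% in control islets at 10 weeks. At 2 weeks it was 4.38 to 9.38% in IUGR islets and 21.7 to 42.3% in controls. Levels are given as scaled CPM, the counts of a transcript per M counts of its library, corrected by the trimmed mean of M-values (TMM) of edgeR. The list of beta and other islet cell genes summed to between 34816 and 204453 scaled CPM in every library, so islet hormone and granule genes were abundant in all 12. The acinar-rich libraries had TMM factors as low as 0.44, so a level in them depends on the scaling.

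The 6 genes together took between 0.00329 and 0.0626% of a library's counts. The lowest share was that of replicate 1 of IUGR islets at 10 weeks (95% Wilson interval 0.00309 to 0.00350%) and the highest that of replicate 3 of IUGR islets at 2 weeks (0.0618 to 0.0633%), intervals that cover counting error only. The mean share was 0.00551 ± 0.00227% in IUGR islets at 10 weeks, 0.00755 ± 0.00144% in controls at 10 weeks, 0.0548 ± 0.00860% in IUGR islets at 2 weeks and 0.0329 ± 0.0125% in controls at 2 weeks (SD, n = 3 each). Of the counts outside the acinar list it was 0.00560 ± 0.00234% in IUGR islets and 0.0117 ± 0.00101% in controls at 10 weeks, and 0.0589 ± 0.0102% in IUGR islets and 0.0452 ± 0.0116% in controls at 2 weeks. Hbb made up 87.6 to 96.4% of the counts of the 6 genes in a library. Counts are not corrected for transcript length, so these are shares of counts and not of molecules.

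The stretches of DNA before the starts of Hbb and Rhag are shown because Hbb carried most of the counts and Rhag set 1 library apart. They are the 250 bases before the start that RefSeq gives on the rat assembly GRCr8, an assembly other than rn5, which the submitters' processing notes name. Of the 6 genes, 3 were matched in the table of promoters (Hbb, Alas2 and Rhag), and the Alas2 window lay inside the gene's RefSeq span and is not shown. Ahsp, Slc25a37 and Slc4a1 were not matched. Capitals mark the letters AGATAA or TGATAA, the core that GATA factors bind, and CACCC, the box that Krüppel-like factors bind, both looked for on both strands, so that a match on the opposite strand shows as its reverse complement.
Hbb, chr1:167663722-167663971, minus strand: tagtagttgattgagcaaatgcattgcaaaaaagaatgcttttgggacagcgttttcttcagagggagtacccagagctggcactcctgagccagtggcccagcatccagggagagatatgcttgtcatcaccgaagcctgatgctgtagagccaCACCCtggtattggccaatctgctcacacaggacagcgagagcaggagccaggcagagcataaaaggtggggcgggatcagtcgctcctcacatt
Rhag, chr9:27594391-27594640, minus strand: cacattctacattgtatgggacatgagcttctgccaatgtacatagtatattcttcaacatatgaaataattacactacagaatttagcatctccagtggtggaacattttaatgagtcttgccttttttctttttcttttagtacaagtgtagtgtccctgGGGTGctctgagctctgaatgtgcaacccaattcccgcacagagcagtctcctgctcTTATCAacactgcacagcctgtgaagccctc
The Hbb window held CACCC at 95 to 91 bases before the start and no GATA core. The Rhag window held a TGATAA on the opposite strand at 31 to 26 bases and a CACCC on the opposite strand at 88 to 84 bases before the start. Of 33469 windows of the same length in the rat table, 16.9% held a GATA core and 49.2% a CACCC. The matches are descriptions of the letters, and whether they are sites was not tested.

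Most of the red cell transcripts were several-fold lower in islets of 10 weeks than in those of 2 weeks, in IUGR islets and in controls. In IUGR islets 5 of the 6 genes fell and none rose (edgeR quasi-likelihood test, Benjamini-Hochberg adjusted p under 0.05 over all transcripts), where 29.2% of all transcripts tested fell. In controls 4 of 6 fell and none rose, where 15.1% of all transcripts fell. The median log2 fold change of the 6 genes was -2.46 in IUGR islets and -1.80 in controls, where the median of all transcripts was 0.00017 in IUGR islets and -0.0029 in controls. In IUGR islets all 3 libraries of 10 weeks were below all 3 of 2 weeks for 6 of 6 genes (35.5% of all transcripts), and in controls for 4 of 6 (20.5% of all transcripts). For Hbb, Ahsp, Alas2 and Slc4a1 all 6 libraries of 10 weeks were below all 6 libraries of 2 weeks, as was so for 11.6% of all transcripts.

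**Figure D1:**
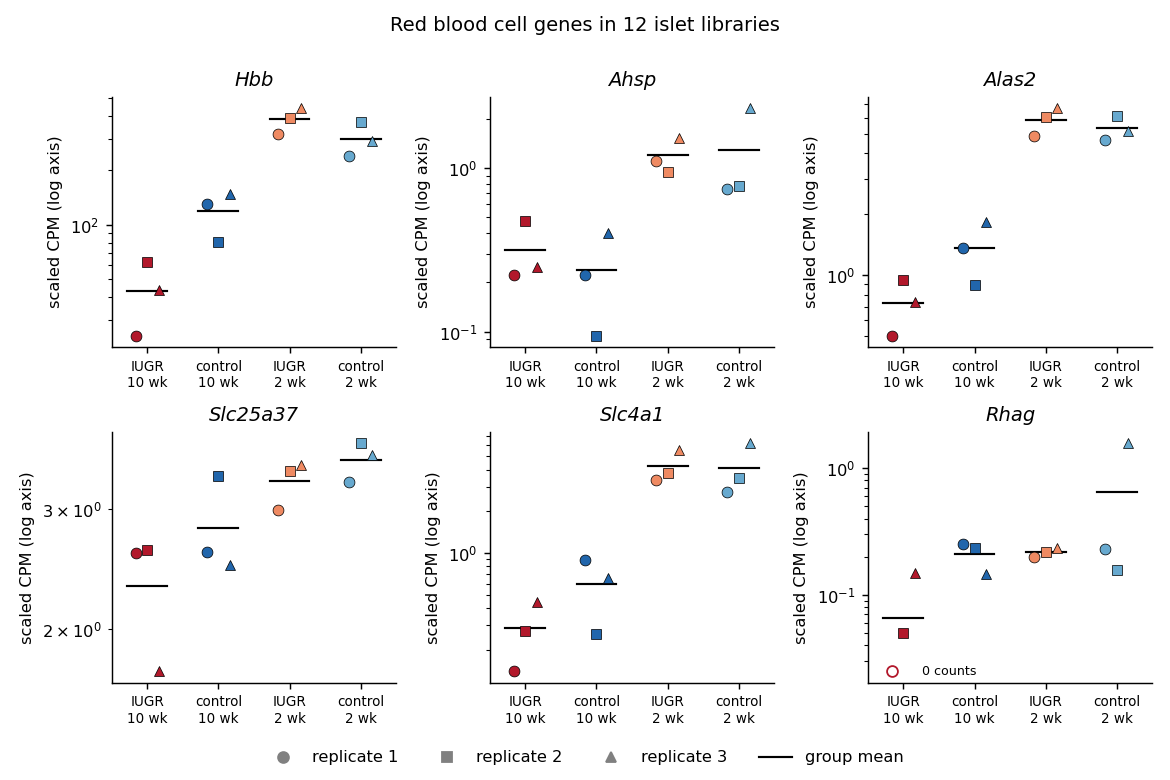
Scaled CPM (log axis) of the 6 red blood cell genes in each of the 12 libraries, with replicates 1 to 3 as circle, square and triangle and the group mean as a line. Hbb, Ahsp, Alas2 and Slc4a1 are lower in all 6 libraries of 10 weeks than in all 6 of 2 weeks, Slc25a37 moves little, and Rhag has 1 high library, replicate 3 of control islets at 2 weeks; the open circle is a library with 0 counts.

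Hbb encodes a beta chain of adult haemoglobin. In IUGR islets it had 24.4, 62.1 and 43.6 scaled CPM at 10 weeks (876 to 2493 counts), against 318, 388 and 443 scaled CPM at 2 weeks (22454 to 26506 counts). In controls it had 130.5, 80.9 and 147.9 scaled CPM at 10 weeks, against 239.8, 369 and 290 scaled CPM at 2 weeks. The 2 ages did not overlap in either condition, and the lowest libraries of all were those of IUGR islets at 10 weeks. Hbb was 8.83-fold lower at 10 weeks in IUGR islets (log2 fold change -3.14 ± 0.34 SE, adjusted p = 3.06e-05, edgeR) and 2.50-fold lower in controls (-1.32 ± 0.32, adjusted p = 0.0104, edgeR).

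Ahsp encodes the chaperone that binds free alpha globin until a beta chain takes it up. Its scaled CPM in IUGR islets was 0.223, 0.473 and 0.247 at 10 weeks, from only 8 to 19 counts, against 1.11, 0.947 and 1.54 at 2 weeks. In controls it was 0.222, 0.0940 and 0.402 at 10 weeks, from 4 to 11 counts, against 0.744, 0.782 and 2.33 at 2 weeks. Every 10-week library was below every 2-week library, and replicate 3 of the 2-week controls was the highest of the 12. Ahsp was 3.76-fold lower at 10 weeks in IUGR islets (log2 fold change -1.91 ± 0.55, adjusted p = 0.0124, edgeR) and 5.65-fold lower in controls (-2.50 ± 0.60, adjusted p = 0.00936, edgeR).

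Alas2, the red cell form of the enzyme of the first step of haem synthesis, had 0.501, 0.947 and 0.741 scaled CPM in IUGR islets at 10 weeks, against 4.89, 6.07 and 6.71 scaled CPM at 2 weeks. In controls it had 1.36, 0.893 and 1.83 scaled CPM at 10 weeks, against 4.66, 6.14 and 5.16 at 2 weeks. The ages stood well apart, while IUGR and control libraries overlapped at both ages. Alas2 was 8.01-fold lower at 10 weeks in IUGR islets (-3.00 ± 0.29, adjusted p = 1.38e-05, edgeR) and 3.96-fold lower in controls (-1.99 ± 0.27, adjusted p = 0.00058, edgeR).

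Slc25a37, called mitoferrin 1, carries iron into mitochondria, where haem is completed. It had 2.59, 2.62 and 1.73 scaled CPM in IUGR islets at 10 weeks, against 2.99, 3.41 and 3.49 at 2 weeks. In controls it had 2.60, 3.36 and 2.48 scaled CPM at 10 weeks, against 3.29, 3.75 and 3.61 at 2 weeks. Only the IUGR ages did not overlap, by a narrow gap. Slc25a37 was 1.43-fold lower at 10 weeks in IUGR islets (log2 fold change -0.51 ± 0.19, adjusted p = 0.0348, edgeR), a call that held in 16 of 23 other fits. In controls its log2 fold change was -0.33 ± 0.19 (adjusted p = 0.19, edgeR), and it passed with totals outside the acinar list (-0.85, adjusted p = 0.0245, edgeR), in a fit where the median of all transcripts was -0.55.

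Slc4a1 encodes band 3, the anion exchanger of the red cell membrane. It had 0.139, 0.274 and 0.445 scaled CPM in IUGR islets at 10 weeks (5 to 18 counts), against 3.37, 3.77 and 5.59 scaled CPM at 2 weeks (238 to 335 counts). In controls it had 0.887, 0.259 and 0.657 scaled CPM at 10 weeks, against 2.75, 3.48 and 6.20 at 2 weeks. The ages did not overlap in either condition. Its log2 fold change of -3.86 ± 0.51 in IUGR islets (14.5-fold lower, adjusted p = 9.89e-05, edgeR) was the furthest from 0 of the 6 genes, and in controls it was -2.82 ± 0.48 (7.06-fold lower, adjusted p = 0.00171, edgeR).

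Rhag, the Rh-associated glycoprotein that carries ammonia across the red cell membrane, had few counts in every library but 1. It had 0, 2 and 6 counts in IUGR islets at 10 weeks, 8, 10 and 4 in controls at 10 weeks, and 14 in each IUGR library at 2 weeks. In 2-week controls it had 8, 8 and 80 counts, which is 0.229, 0.156 and 1.57 scaled CPM. The count of 0 allows a level of up to 0.0835 scaled CPM in that library (3 counts). No comparison of Rhag passed the test with TMM scaling, with log2 fold changes for age of -1.63 ± 1.04 in IUGR islets (adjusted p = 0.2, edgeR) and -1.62 ± 0.85 in controls (adjusted p = 0.163, edgeR). Without replicate 3 of the 2-week controls, the value in controls was 0.17 (adjusted p = 0.865, edgeR), so its direction rested on that library. With totals outside the acinar list the value in controls passed (-2.16, adjusted p = 0.0494, edgeR), or -1.61 relative to the median of all transcripts.

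**Figure D2:**
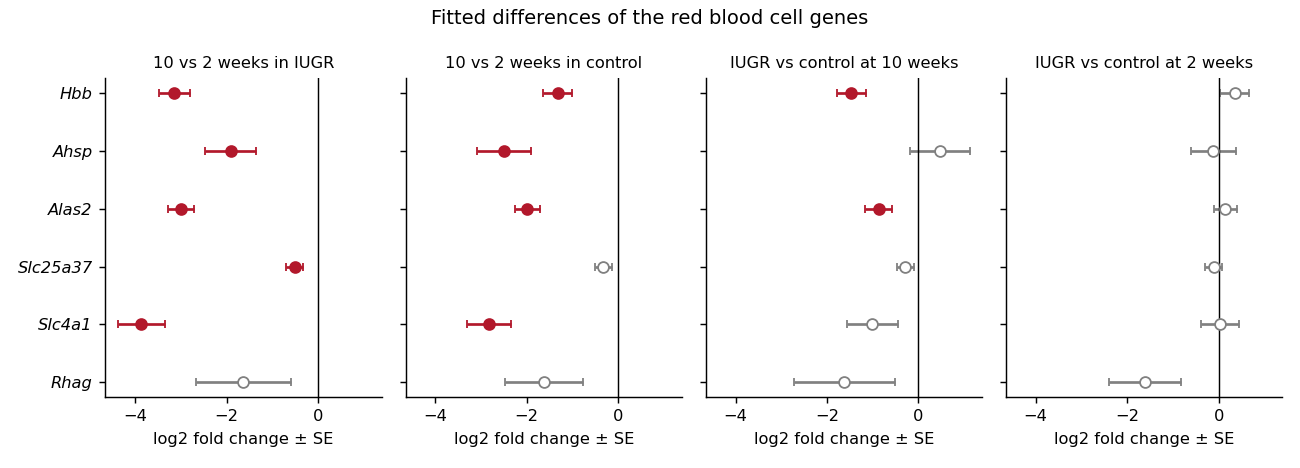
Fitted log2 fold changes of the 6 genes with their standard errors in 4 comparisons, 10 against 2 weeks in IUGR islets and in controls and IUGR against control at 10 and at 2 weeks. Filled red points passed an adjusted p under 0.05, which was so for 5, 4, 2 and 0 of the 6 genes.

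The fall with age in Hbb, Alas2 and Slc4a1 passed the test in 23 of 23 other fits in both conditions. Without scaling factors the log2 fold change of Hbb was -3.38 in IUGR islets and -2.12 in controls, or -3.14 and -1.50 relative to the median of all transcripts. In controls the same fit gave -3.38 for Ahsp, -2.77 for Alas2 and -3.70 for Slc4a1, further from 0 than with TMM, or -2.75, -2.14 and -3.07 relative to the median. Without control replicates 1 and 3 of 10 weeks, the acinar-richest libraries of that age, the values in controls were -1.89 for Hbb, -3.75 for Ahsp, -2.57 for Alas2 and -4.00 for Slc4a1. With the acinar level as a covariate, Ahsp and Slc25a37 no longer passed in IUGR islets (adjusted p = 0.173 and 0.0553, edgeR). Other cell types moved with age too, and their part in the fall was not tested. In IUGR islets 15 of 18 endothelial genes, 12 of 12 mesenchymal and matrix genes and 20 of 34 acinar genes fell at 10 weeks, while 11 of 16 genes of beta and other islet cells rose and 3 fell. In controls the mesenchymal list fell for 8 of 12 genes, while of the endothelial list 2 of 18 fell and 3 rose, with summed levels of 894 to 1548 scaled CPM at 10 weeks and 749 to 1231 at 2 weeks. Of the acinar list 5 of 34 rose and none fell in controls, and of the beta and other islet cell list 10 of 16 rose and 2 fell. Among all transcripts 29.2% fell and 27.3% rose with age in IUGR islets, and 15.1% fell and 17.2% rose in controls.

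At 10 weeks Hbb was lower in IUGR than in control islets by TMM scaling, Alas2 was lower by a narrow margin of the test, and the other 4 genes did not pass. Of the 6 genes, 2 fell (Hbb and Alas2) and none rose, where 15.5% of all transcripts fell. Only Hbb had groups that did not overlap, with all IUGR libraries below, as was so for 18.9% of all transcripts. Hbb averaged 43.3 ± 18.9 scaled CPM in IUGR islets and 119.8 ± 34.8 in controls (SD, n = 3 each), a 2.76-fold lower level (log2 fold change -1.47 ± 0.32, adjusted p = 0.00903, edgeR). Alas2 averaged 0.730 ± 0.223 scaled CPM in IUGR islets and 1.36 ± 0.466 in controls (-0.87 ± 0.30, adjusted p = 0.0486, edgeR), with groups that overlapped, and it passed in 7 of 23 other fits. Its direction turned without scaling factors (0.0855, adjusted p = 0.875, edgeR, or -0.72 relative to the median of all transcripts) and once a covariate for acinar content was fitted (0.0816). The log2 fold changes that did not pass were 0.47 ± 0.65 for Ahsp, -0.29 ± 0.19 for Slc25a37, -1.01 ± 0.56 for Slc4a1 and -1.62 ± 1.10 for Rhag.

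The 10-week difference in Hbb depended on how the acinar-rich control libraries were scaled. As CPM of all counts, Hbb had 28.8, 73.1 and 50.4 in IUGR islets and 64.2, 86.9 and 65.1 in controls, so that replicate 2 of the IUGR islets lay above 2 of the 3 control libraries. As CPM of the counts outside the acinar list it had 29.2, 74.8 and 50.8 in IUGR islets and 112.5, 100.9 and 122.6 in controls, with no overlap. Without any scaling factor the log2 fold change of Hbb was -0.50 (adjusted p = 0.263, edgeR), in a fit where the median of all transcripts was 0.80, so that relative to the median Hbb stood at -1.31. With totals outside the acinar list it was -1.12 (adjusted p = 0.0165, edgeR), or -1.39 relative to a median of 0.27. This comparison shares its libraries with the comparisons of age, so their values are not independent. The call was also lost with the acinar level as a covariate (-0.51, adjusted p = 0.676, edgeR) and without control replicates 1 and 3, whose acinar share was over 40% (-0.88, adjusted p = 0.144, edgeR). Acinar content and growth restriction cannot be told apart at 10 weeks or at 2 weeks, because the acinar shares of IUGR and control libraries overlapped at neither age. In IUGR islets acinar content and age cannot be told apart either, since the shares of the 2 ages did not overlap.

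**Figure D3:**
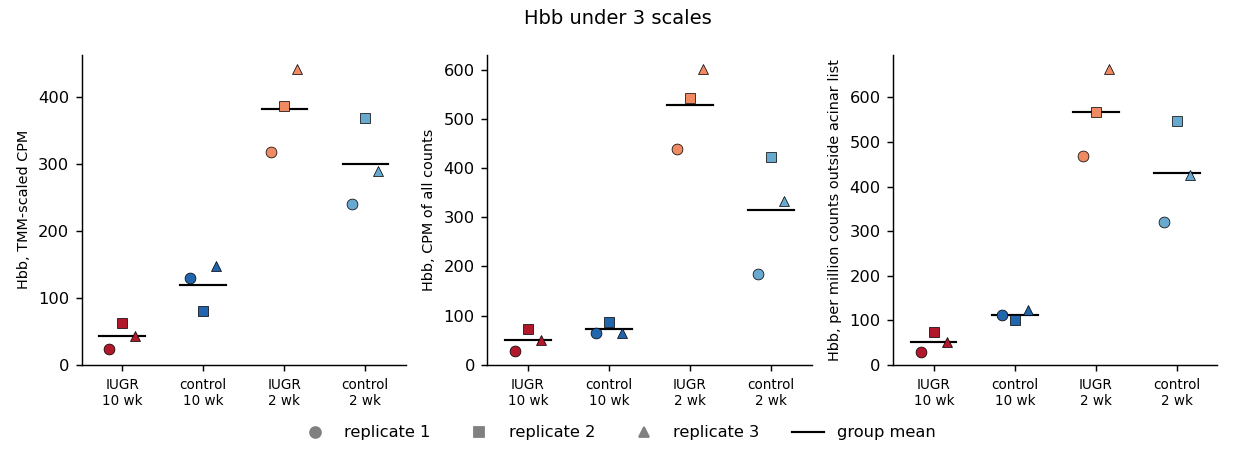
Hbb in the 12 libraries on 3 scales, TMM-scaled CPM, CPM of all counts, and CPM of the counts outside the acinar list, with group means as lines. At 10 weeks IUGR and control libraries overlap on the scale of all counts and not on the other 2, while the 10-week libraries are below the 2-week libraries on all 3.

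Genes of other cell types differed between IUGR and control islets at 10 weeks as well. Of the acinar list 31 of 34 fell, of the endothelial list 14 of 18, of the mesenchymal and matrix list 8 of 12, of the platelet list 7 of 11, of the macrophage list 3 of 12, of the neutrophil and granulocyte list 2 of 10 and of the B and T cell list 0 of 11, and none of these lists held a gene that rose. Of the beta and other islet cell list 6 of 16 rose and none fell. Among all transcripts 15.5% fell in this comparison. Summed endothelial levels were 625 to 841 scaled CPM in IUGR islets and 894 to 1548 in controls. Their part in the difference of Hbb was not tested.

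At 2 weeks none of the 6 genes passed the test between IUGR and control islets, where 3.88% of all transcripts did in either direction. None of the 6 had an unadjusted p under 0.05, none was called by DESeq2, and the libraries of the 2 conditions overlapped for all 6. Hbb averaged 383 ± 62.3 scaled CPM in IUGR islets and 299.5 ± 64.9 in controls (SD, n = 3 each), a log2 fold change of 0.35 ± 0.32 (adjusted p = 0.481, edgeR). Those of Ahsp, Alas2, Slc25a37 and Slc4a1 lay between -0.12 and 0.14, with standard errors of 0.18 to 0.49. Rhag had -1.60 ± 0.79 (adjusted p = 0.202, edgeR), and 0.19 without replicate 3 of the controls.

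The effect of growth restriction differed between the ages for Hbb, by -1.82 ± 0.45 on the log2 scale (10 weeks minus 2 weeks, adjusted p = 0.0232, edgeR). It was the only 1 of the 6 genes to pass, where 10.4% of all transcripts passed in the same direction, and Alas2 had -1.02 ± 0.39 (adjusted p = 0.102, edgeR). The call for Hbb held in 15 of 22 other fits, with adjusted p between 0.000624 and 0.359. It was lost with the acinar level as a covariate (-1.30, adjusted p = 0.12, edgeR), without control replicates 1 and 3 of 10 weeks (-1.26, adjusted p = 0.113, edgeR) and without scaling factors (-1.25, adjusted p = 0.359, edgeR). It was also lost without replicate 3 of the IUGR islets at 10 weeks (adjusted p = 0.0509, edgeR), control replicate 3 at 10 weeks (0.0623), or replicate 2 or 3 of the IUGR islets at 2 weeks (0.0524 and 0.053).

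Ratios between red cell transcripts within a library need no scaling between libraries, and of the other 5 genes Alas2 had the narrowest span of ratios to Hbb. Alas2 had 20.6, 15.2 and 17.0 counts per 1000 Hbb counts in IUGR islets at 10 weeks, against 10.4, 11.04 and 12.3 in controls of that age. At 2 weeks it had 15.4, 15.7 and 15.2 in IUGR islets and 19.5, 16.7 and 17.8 in controls. Over the 12 libraries this ratio spanned 1.97-fold, while the scaled level of Hbb spanned 24.4 to 443 scaled CPM. At 10 weeks all IUGR libraries were above all control libraries in Alas2 per Hbb, and at 2 weeks all were below.

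Ahsp per 1000 Hbb counts was 9.13, 7.62 and 5.67 in IUGR islets at 10 weeks and 1.70, 1.16 and 2.72 in controls at 10 weeks. At 2 weeks it was 3.47, 2.44 and 3.47 in IUGR islets and 3.10, 2.12 and 8.05 in controls. The 10-week groups did not overlap, with 4 to 19 Ahsp counts behind each of these values. Slc4a1 had 5.71, 4.41 and 10.2 per 1000 Hbb counts in IUGR islets and 6.80, 3.20 and 4.44 in controls at 10 weeks, and at 2 weeks 10.6, 9.73 and 12.6 in IUGR islets and 11.5, 9.44 and 21.4 in controls. The ratio of Slc25a37 spanned 13.5-fold over the 12 libraries, with 106, 42.1 and 39.7 per 1000 Hbb counts in IUGR islets at 10 weeks and 7.89 to 9.40 at 2 weeks, against 16.8 to 41.6 in controls at 10 weeks and 10.2 to 13.7 at 2 weeks. An exact permutation test of 3 against 3 libraries cannot go below p = 0.1 (two-sided), and over 32 such tests of ratios to Hbb the smallest adjusted p was 0.229, so no ratio passed.

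**Figure D4:**
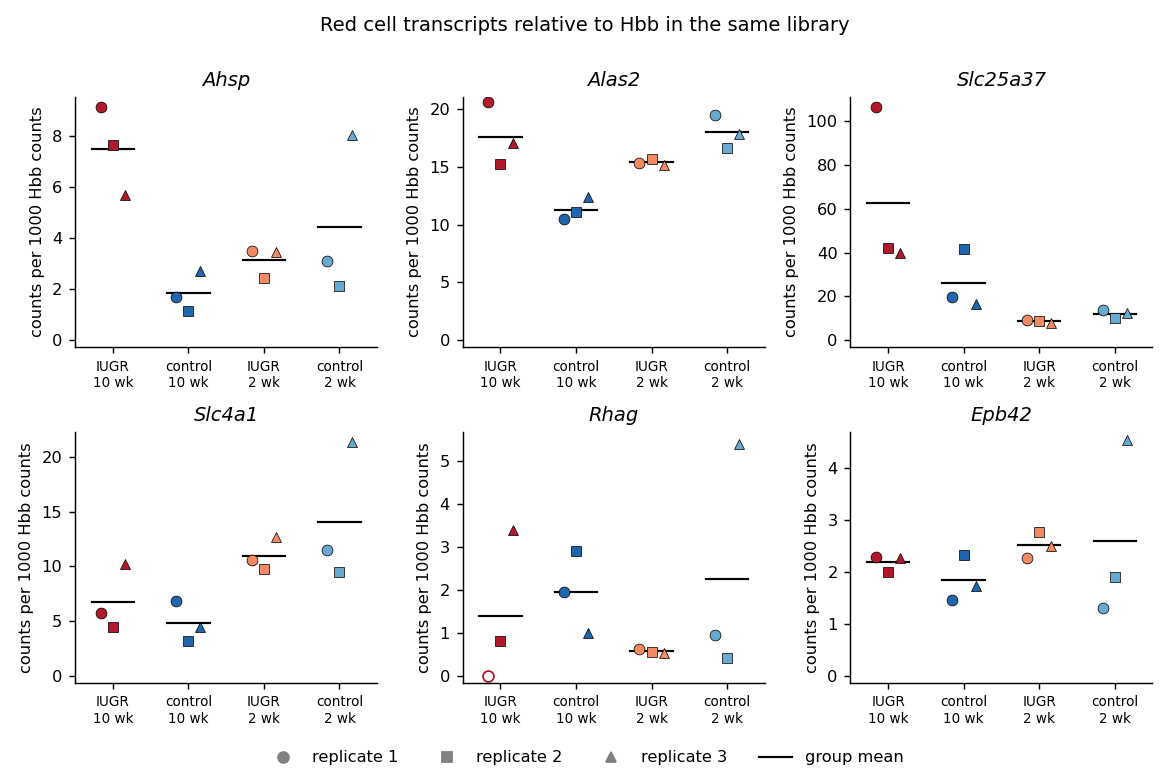
Counts of 5 red blood cell genes and of Epb42 (protein 4.2) per 1000 Hbb counts of the same library, with replicates as symbols and group means as lines. Ahsp per Hbb is higher in all 3 IUGR libraries than in all 3 control libraries at 10 weeks, and Ahsp, Slc4a1, Rhag and Epb42 are highest of the 2-week libraries in replicate 3 of the controls.

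Replicate 3 of the 2-week controls stood apart in several genes of the red cell membrane. Rhag was 5.41 per 1000 Hbb counts there and 0.424 to 0.955 in the other 5 libraries of that age. Epb42, protein 4.2 of the red cell membrane, was 4.53 there and 1.31 to 2.76 in the others. Slc4a1 at 21.4 and Ahsp at 8.05 were likewise the highest of the 12 libraries or of their age, and so were Rhd and Ank1 at 4.87 and 4.87 per 1000 Hbb counts. Hba1, an alpha globin, was 1.18 per Hbb count in the same library, within the 1.12 to 1.62 of all libraries, and Alas2 at 17.8 was within the range of the other controls. These genes were picked after their values were seen. Without this library the fall with age in controls still passed for Ahsp (-1.73, adjusted p = 0.0302, edgeR) and Slc4a1 (-2.40, adjusted p = 0.0051, edgeR).

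Of the other globins, Hba1, Hba2 and Hbb-b1 passed the filter. By TMM scaling they fell with age in IUGR islets, with age in controls, and in IUGR against control islets at 10 weeks. Among all transcripts 29.2%, 15.1% and 15.5% fell in these comparisons. Hba1 averaged 49.8 ± 19.9 scaled CPM in IUGR islets at 10 weeks and 525 ± 115 at 2 weeks (log2 fold change -3.40 ± 0.34, adjusted p = 1.9e-05, edgeR). In controls it averaged 144 ± 38 scaled CPM at 10 weeks and 370 ± 92 at 2 weeks (-1.36 ± 0.32, adjusted p = 0.00831, edgeR). The 10-week log2 fold changes of IUGR against control were -1.53 for Hba1, -1.49 for Hba2 and -1.36 for Hbb-b1. That of Hbb was -1.47. All 3 differed between the ages as Hbb did (-2.03, -2.06 and -1.84), where 10.4% of all transcripts passed in that direction. As a share of all counts, Hbb and these 3 together overlapped at 10 weeks (0.0106 to 0.0248% in IUGR islets and 0.0221 to 0.0312% in controls). Acinar content and growth restriction cannot be told apart here either. Globin genes have near-identical copies, and the rule for reads that match several is not given in the sources used here, so the split between Hba1 and Hba2 and between Hbb and Hbb-b1 is uncertain. The embryonic globins Hbe1, Hbg1 and Hbz had 0 to 2 counts in each library, and Hbe2 had 0 in all 12.

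Of all transcripts tested, 27.3% rose with age in IUGR islets and 17.2% in controls, beside the 29.2% and 15.1% that fell, and the counts of the lists that follow are to be read against these shares. Of 8 other enzymes of haem synthesis, which all cells use, 2 rose and 6 did not pass with age in IUGR islets, with log2 fold changes from -0.48 to 1.45, and 8 of 8 did not pass in controls, from -0.44 to 0.61. The share that rose in IUGR islets was near that of all transcripts. Those that rose in IUGR islets were Uros and Ppox (1.45 ± 0.33 and 0.51 ± 0.12 on the log2 scale, adjusted p = 0.00332 and 0.00326, edgeR). Uros makes uroporphyrinogen III and Ppox protoporphyrin IX. Among the other 7 genes listed under mitochondrial iron and haem transport, Slc25a38 and Slc25a39 rose with age in IUGR islets. Abcb10, a mitochondrial transporter that binds mitoferrin 1 in mouse cells, fell there (-0.48 ± 0.10, adjusted p = 0.00234, edgeR). In controls Slc25a38 rose and 6 did not pass. What each gene of this list carries was not part of the data.

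Of 9 tested genes of iron uptake and storage, 2 rose and 4 fell with age in IUGR islets, and 2 rose and 3 fell in controls. Fth1, the heavy chain of the iron store ferritin, rose in both (1.31 ± 0.15 in IUGR islets and 1.62 ± 0.15 in controls, adjusted p = 3.53e-05 and 9.39e-05, edgeR), the opposite direction to Hbb. Steap3, the reductase of iron taken up by young red cells and also found in other tissues, averaged 0.635 ± 0.14 scaled CPM in IUGR islets at 10 weeks, against 5.70 ± 0.64 at 2 weeks (-3.16 ± 0.35, adjusted p = 3.2e-05, edgeR). In controls Steap3 had 4.56, 3.95 and 9.71 scaled CPM at 10 weeks and 10.3, 7.96 and 7.26 at 2 weeks, so the ages overlapped there. Of 7 genes of haem breakdown and export, 5 fell and 1 rose with age in IUGR islets, and 2 fell and 1 rose in controls. Blvrb, a biliverdin reductase abundant in red cells, fell in both (-0.94 ± 0.11 and -0.32 ± 0.11, adjusted p = 4.97e-05 and 0.0462, edgeR).

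Of 20 other genes of the red cell membrane and its skeleton, 11 fell and 4 rose with age in IUGR islets and 7 fell and 3 rose in controls. Among those that fell in both were Rhd, of the Rh blood group (-2.77 ± 0.61 in IUGR islets and -2.03 ± 0.57 in controls, adjusted p = 0.00271 and 0.0195, edgeR), and Epb42, protein 4.2, which binds band 3 (-3.32 ± 0.53 and -1.90 ± 0.49, adjusted p = 0.000325 and 0.0134, edgeR). A 10-week library held only 1 to 8 counts of Rhd and 2 to 8 of Epb42. Of the 2-week controls, replicate 3 was the highest for both, with 72 and 67 counts. Aqp1, a water channel that vessel walls use as well, fell in IUGR islets (-2.47 ± 0.34, adjusted p = 0.000131, edgeR) and rose in controls (1.06 ± 0.33, adjusted p = 0.03, edgeR). Those that rose in IUGR islets were Sptb, Dmtn, Tmod1 and Xk. They are also used outside red cells, as are some of the genes that fell, Aqp1 among them. At 10 weeks 5 of the 20 fell in IUGR against control islets and none rose, where 15.5% of all transcripts fell.

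Of 12 tested genes of erythroid transcription and growth, 5 fell and 1 rose with age in IUGR islets and 4 fell and 1 rose in controls. The factors Tal1 and Lmo2, which endothelial cells share with the red cell lineage, fell in IUGR islets (-2.31 ± 0.31 and -1.59 ± 0.26, adjusted p = 0.00012 and 0.000372, edgeR). Klf1, the Krüppel-like factor of red cell precursors, had 7 to 43 counts in a library, and Gata1 had 0 to 17. In IUGR islets Klf1 averaged 0.341 ± 0.060 scaled CPM at 10 weeks and 0.363 ± 0.134 at 2 weeks, close to each other, unlike Hbb. In controls Klf1 averaged 0.346 ± 0.172 at 10 weeks and 0.657 ± 0.187 at 2 weeks. Gata1 averaged 0.0166 and 0.166 scaled CPM in IUGR islets at 10 and 2 weeks, and 0.0803 and 0.120 in controls. Of 13 tested genes of red cell enzymes and late maturation, 5 rose and 3 fell in IUGR islets and 2 rose and 2 fell in controls, of which the share that fell was near that of all transcripts in both. Alox15, a lipoxygenase known for its part in the breakdown of mitochondria in reticulocytes, fell furthest, to 0.348 ± 0.114 scaled CPM in IUGR islets at 10 weeks, against 44.5 ± 5.4 at 2 weeks (-6.97 ± 0.42, adjusted p = 1.78e-06, edgeR). In controls Alox15 averaged 1.77 ± 0.99 scaled CPM at 10 weeks and 30.8 ± 7.2 at 2 weeks (-4.16 ± 0.35, adjusted p = 8.18e-05, edgeR). It did not keep a steady ratio to Hbb. Per 1000 Hbb counts it averaged 8.42 in IUGR islets and 14.0 in controls at 10 weeks, against 118 and 102 at 2 weeks.

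**Figure D5:**
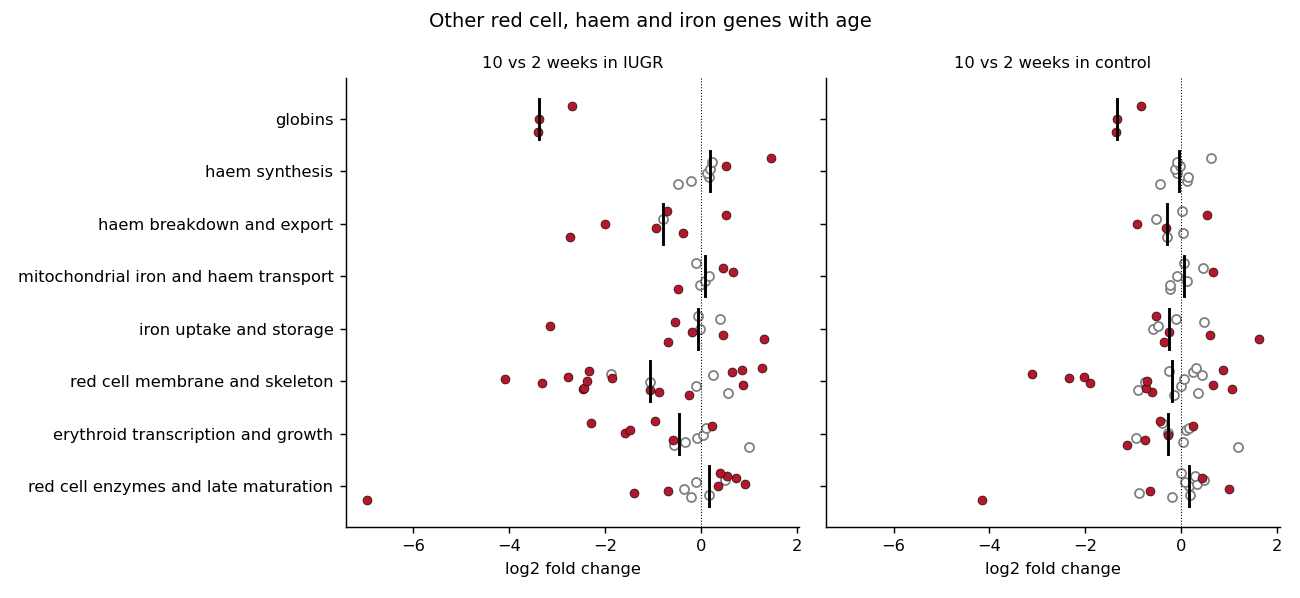
Log2 fold change of 10 against 2 weeks for the other tested genes of 8 lists around the red cell, in IUGR islets and in controls, with filled points past an adjusted p under 0.05 and the list median as a bar. All 3 globins are to the left of 0 in both panels, haem synthesis enzymes lie on both sides of 0, and Alox15 is the point furthest left.

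The genes whose levels followed the 6 most closely were found by Pearson's r with the mean z-score of the 6 over the 12 libraries, among 12488 symbols. Alox15 ranked highest (r = 0.966, Spearman's rho = 0.909), with r = 0.937 within the 6 libraries of 10 weeks and 0.156 within those of 2 weeks. Its median was 0.321 scaled CPM in IUGR islets and 1.65 in controls at 10 weeks, and 45.99 in IUGR islets and 32.3 in controls at 2 weeks. Those named after it are Xylt2, Pcdh20, Tcf21, Sh3gl1, Ccdc28b, Srpx2, Cry1 and Islr, with r between 0.951 and 0.955. Hba1 and Hba2 ranked 16 and 17 (r = 0.948 and 0.947). The libraries fall into 2 clusters by age, so that the values over the 12 libraries rest mostly on the difference between ages. Within the libraries of 10 weeks r was 0.994 for Hba1, 0.993 for Hba2 and 0.990 for Hbb-b1. Within those of 2 weeks it was 0.0397, 0.0672 and -0.0727 in the same order. At 10 weeks the mean z-score was lower in every IUGR library than in every control library, so r within 10 weeks includes the difference between conditions.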

How the data were processed

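The data are 12 RNA sequencing libraries of islets, prepared per the labels from RNA with an integrity number above 7. The authors deposited raw counts per Ensembl transcript, whole numbers with no normalization. TopHat2 2.0.9, bedtools and the builds rn5 and mm9 stand in the submitters' processing notes without roles. How reads were counted, and with which strand setting, is not given in the sources used here, so reads of antisense or near-identical genes may be mixed.

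From these counts, edgeR 4.0.16 in R 4.3.3 was run with filterByExpr, TMM factors, 1 fit of 4 groups and robust quasi-likelihood F tests, with Benjamini-Hochberg adjustment over 20733 transcripts (17361 symbols). The standard error was obtained by dividing the size of a log2 fold change by the root of its F statistic. The steps were tested on simulated data. Alternatives were a block for the replicate number, an acinar covariate, DESeq2 1.42.0, RLE factors, unfiltered counts, a threshold of 0.1, the compared libraries alone, removal of all acinar-list genes and the 20 most abundant transcripts, 1 transcript per symbol, and each library removed in turn. Leaving out both acinar-rich 10-week controls, which leaves 1 control library assumed to vary like the other groups, and 2 other scalings were added after the data were seen. Members and lists were chosen with earlier results of these data known. All members are named, and of the lists around the red cell those that passed the test or had the highest levels. Some genes that these rules select are not reported here. Promoter letters are RefSeq's, build GRCr8.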

Additional observations from a re-analysis of the deposited data

Results flagged for a closer look

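The effect of growth restriction on Hbb differed between the ages by a test of the difference itself, with a log2 value of -1.82 (10 weeks minus 2 weeks). IUGR against control islets had a log2 fold change of -1.47 at 10 weeks and 0.35 at 2 weeks. By TMM scaling Hbb was lower in 3 of 3 IUGR libraries than in every control library at 10 weeks, and the groups overlapped at 2 weeks. As CPM of all counts, replicate 2 of the 10-week IUGR islets (73.1) lay above 2 of the 3 controls. The call of the difference was lost in 7 of 22 other fits, which were those without scaling factors, with the acinar covariate, without control replicates 1 and 3 of 10 weeks, and in 4 that left out 1 library.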

How the results depend on the processing

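Counts of the 6 genes past the threshold were 5 with age in IUGR islets, 4 with age in controls, 2 for IUGR at 10 weeks, 0 at 2 weeks and 1 for the difference between ages. With the acinar level as a covariate they were 3 with age in IUGR islets, 0 at 10 weeks and 0 for the difference. With totals outside the acinar list it was 6 with age in controls. At 10 weeks the count was 1 with no filter on low counts, with only the libraries compared and with totals outside the acinar list, 0 without scaling factors, 0 without control replicates 1 and 3, and 1 to 2 with each library left out. For the difference it was 2 by DESeq2, 0 without scaling factors, 0 without control replicates 1 and 3 of 10 weeks, and 0 to 2 with each library left out. The mean share of the 6 genes in 10-week controls was 0.0117% of counts outside the acinar list. The cause of these changes was not tested.

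Signs of log2 fold changes turned as follows, with Alas2 at 10 weeks the only one that had passed. At 10 weeks they were 0.0816 (covariate) and 0.0855 (no scaling factors) for Alas2, 0.46 (no scaling factors) for Slc25a37 and 0.18 (without control replicates 1 and 3) for Slc4a1. At 2 weeks they were 0.52 (covariate) and 0.25 (no scaling factors) for Ahsp, 0.31 (no scaling factors) for Slc25a37 and -0.00836 (only these libraries) for Slc4a1. For the difference between ages they were 0.44 (no scaling factors) and 0.21 (outside the acinar list) for Rhag, 0.14 and 0.0218 for Slc25a37 under the same scalings, and 0.13 (without control replicates 1 and 3) for Slc4a1. With each library left out, Rhag ranged over -2.09 to 0.17 with age in controls, and at 2 weeks Ahsp ranged over -0.38 to 0.64, Slc4a1 over -0.22 to 0.44 and Rhag over -2.07 to 0.19. The difference between ages then ranged over -0.18 to 1.21 for Ahsp, -0.28 to 0.0390 for Slc25a37 and -1.80 to 0.51 for Rhag.

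Same-numbered pairs of libraries had correlations of deviations from -0.137 to 0.478, and differently numbered pairs from -0.457 to 0.312. Between the 2 ages of controls, same-numbered pairs had 0.393, 0.478 and 0.00105, and the others -0.457 to 0.104. These values do not settle whether the replicate numbers pair the libraries. With the replicate number as a block, 5, 4, 2, 0 and 1 of the 6 genes passed, and Ahsp at 2 weeks turned to 0.0154. Without scaling factors the median of all transcripts shifted to 0.80 at 10 weeks, 0.48 at 2 weeks, -0.24 with age in IUGR islets and -0.63 with age in controls, and the share of calls that were higher was 19.7% with age in IUGR islets and 7.02% in controls, against 48.3% and 53.2% with TMM. Over all transcripts, 804 passed at 2 weeks, and 0 to 3219 under the alternatives. Ahsp had 4 to 19 and Rhag 0 to 10 counts per 10-week library, and this depth limits what can be seen between the conditions in these genes.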

Other observations

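Other blood cell genes did not all move as the globins did. With age, 29.2% of all transcripts tested fell and 27.3% rose in IUGR islets, and 15.1% fell and 17.2% rose in controls. Of the neutrophil and granulocyte list, 6 of 10 tested genes fell with age in IUGR islets, and the list summed to 3.96 to 4.73 scaled CPM at 10 weeks and 16.7 to 22.2 at 2 weeks. In controls 2 of 10 fell and 1 rose, with sums of 11.6 to 22.3 scaled CPM at 10 weeks and 11.2 to 22.4 at 2 weeks, which overlapped. Of the platelet list, 3 of 11 fell with age in IUGR islets, and 3 rose and none fell in controls. Of the macrophage list, 3 of 12 fell in IUGR islets and 5 rose in controls. The shares of the platelet and macrophage lists that fell in IUGR islets were near that of all transcripts. So was the share of the neutrophil and granulocyte list that fell in controls. Of the B and T cell list none of 11 passed with age in IUGR islets, with sums of 24.3 to 90.9 scaled CPM at 10 weeks and 13.6 to 17.4 at 2 weeks. In controls 2 of the 11 rose and none fell. Their sums there were 11.9 to 105 scaled CPM at 10 weeks and 5.35 to 19.0 at 2 weeks, which overlapped.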
